A study of Sus scrofa with 12 samples.

Results

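A set of 38 macrophage and myeloid genes was followed in the longissimus dorsi muscle of Iberian pigs that differed in their breeding value for myoglobin, the pigment that gives meat its red colour. The set was named by symbol: resident macrophage receptors and markers, the chains of complement C1q, myeloid signalling genes, adhesion and pattern recognition receptors, and genes of the phagocyte oxidase, the lysosome and the galectins. Of the 38 symbols, 36 had a row among the 25880 genes of the count tables. MPEG1 and CYBB had none and were not analysed here. Counts of 35 were high enough to be tested, among 13373 genes tested in all, and TREM2 was the one left out.

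RNA of 12 pigs was sequenced with 1 library per pig, 6 in the High MB group and 6 in the Low MB group. All were castrated Iberian males of a closed commercial population, fattened outdoors on acorns and grass and slaughtered at a similar age, and full siblings had been avoided. No pig was treated, so the groups differ by selection on an estimated breeding value and may differ in other inherited traits. Muscle myoglobin averaged 2.48 ± 0.0657 mg/g (High MB) and 1.39 ± 0.147 mg/g (Low MB; SD, n = 6 each).

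Macrophages are the main resident immune cells of skeletal muscle, where they lie in the connective tissue between fibres, clear dead cells and debris and take part in repair. They depend on the growth factor receptor CSF1R, take up haemoglobin and sugar-bearing proteins through receptors such as CD163 and MRC1, and make most of the complement protein C1q of a tissue. The transcription factor PU.1, encoded by SPI1, sets the identity of the myeloid lineage and binds a purine-rich sequence in the control regions of many of the genes followed here. In bulk muscle, a higher level of such a gene can come from more cells of a type or from more RNA per cell, and these cannot be told apart.

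Because the same regulator is known to act on much of the set, the 250 bases before the RefSeq gene start in Sscrofa11.1 were searched on both strands for the PU.1 letters GAGGAAGT and for the shorter GAGGAA, which the longer motif contains. All 36 genes with a row had such a window. The longer motif stood in 4 of them, against 1.64% of 19531 genes with a window, and the shorter one in 17, or 47.2%, against 22.0%. The 4 windows with the longer motif are shown around it, 5′ to 3′ on the strand of the gene, with the motif or its reverse complement in capitals. The genes encode a C1q chain, a signalling protein of blood cells, an integrin chain and an oxidase subunit.
C1QC, chr6:80592369-80592428, plus strand: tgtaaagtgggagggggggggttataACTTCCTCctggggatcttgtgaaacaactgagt
VAV1, chr2:72391650-72391693, minus strand: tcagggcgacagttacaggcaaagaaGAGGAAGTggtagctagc
ITGB2, chr13:207544113-207544172, minus strand: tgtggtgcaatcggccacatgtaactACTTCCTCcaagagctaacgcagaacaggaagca
NCF1, chr3:11820266-11820325, plus strand: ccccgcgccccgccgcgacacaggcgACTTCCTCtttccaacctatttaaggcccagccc
A match describes the letters of the reference genome and is not evidence of binding in this muscle. The 4 genes did not share a direction between groups: C1QC, VAV1 and ITGB2 had higher means in the High MB group, while NCF1 had the lower one.

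Libraries ranged from 39046362 to 91318334 gene counts in the High MB group (median 39937956) and from 38914271 to 73324443 in the Low MB group (median 50954654). High MB 4, High MB 6, Low MB 1, Low MB 5 and Low MB 6 exceeded 50000000 counts and are called deep, and the other 7 are called standard. Pairs of pigs of 1 group differed by far more than counting noise, with a chi-square per degree of freedom of at least 61.7, so no library was a copy of another of its group. The tissue label held, since ACTA1, the main actin of muscle fibres, stood between 18547 and 73321 CPM (the gene's counts relative to the total of the library, scaled with the TMM method).

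The pig High MB 2 stood apart. It was the highest of all 12 pigs in 26 of the 35 genes tested, compared with 20.1% of all genes, and its level was a median of 2.61 times the mean of the other 5 High MB pigs, from 0.896 times for CORO1A to 7.83 times for MSR1. The 7 muscle fibre markers with a row summed to 44449 CPM in this pig, below the 83107 to 146667 CPM of the Low MB pigs, while its fibroblast markers (819 CPM) lay within the range of its group. The sum of the adipocyte markers was highest in this pig, at 563 CPM, most of it from PNPLA2 (290.4 CPM) and FABP4 (133 CPM), while the other 5 were below their High MB mean. The sum of the neutrophil markers was 5.23 CPM against at most 2.50 CPM in the Low MB group, although the markers went different ways, with ELANE (1.39 CPM) not raised and MPO at 0. The part of these differences in the results was not tested, and counts of genes at an unadjusted edgeR p under 0.05 are given with and without this pig.

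Between the groups, 33 of the 35 genes had a log2 fold change above 0, higher in the High MB group, where 46.9% of all genes tested did. Their median log2 fold change was 0.81 against -0.02 for all genes, and 27 exceeded 0.58, a size reached by 6.77% of all genes. None of the 35 passed the edgeR quasi-likelihood test at a Benjamini-Hochberg adjusted p under 0.10 with an absolute log2 fold change over 0.58, and 0% of all genes did. Their smallest adjusted p in edgeR was 0.563. At an unadjusted p under 0.05, 20 genes were higher in the High MB group, against 5.33% of all genes tested, and 0 were lower, against 3.13% of all genes.

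DESeq2, the tool the study used, called 3 of the genes higher in the High MB group, where 0.187% of all genes were. These were CD209 (DESeq2 adjusted p = 0.00731), LGALS3 (0.0398) and FES (0.0996). The 3 are also in the study's own list of differentially expressed genes from the same pigs, so they are not independent evidence. VAV1 is also named in a network that the study drew from these pigs with a looser limit. All the genes were chosen with earlier results of these data known, so their counts against all genes are not independent evidence either. P-values here measure the spread between these 12 pigs.

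Without High MB 2, 10 genes were higher at an unadjusted p under 0.05, against 5.80% of all genes, and the median log2 fold change was 0.45, with 33 of 35 still above 0. The 10 were CD209, LGALS3, FES, C1QA, C1QB, C1QC, TYROBP, CSF1R, AIF1 and CTSS, and NCF1 was lower (log2 fold change -1.69). The share of all genes lower was not counted in that fit. Without Low MB 2 the count of higher genes was 13, against 4.65% of all genes. Without both High MB 2 and Low MB 4, left out together as pigs that cluster apart, it was 14, against 5.06%. The median log2 fold change was then 0.65. Among the deep libraries alone the count was 5, against 2.17% of all genes. Among the standard libraries, which hold High MB 2, it was 17, against 4.86%.

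**Figure D1:**
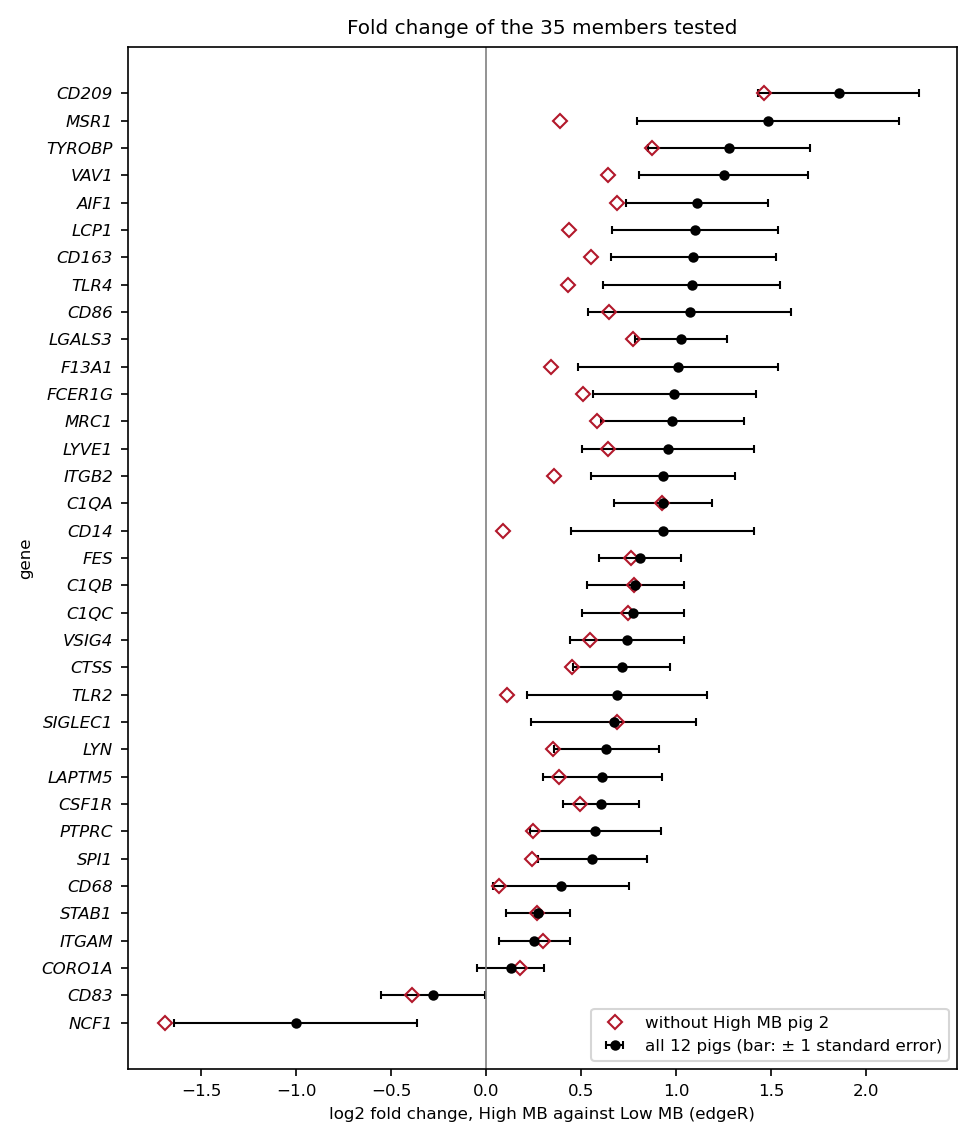
Log2 fold change of each of the 35 genes tested, High MB against Low MB, on the horizontal axis, as black points with bars of 1 standard error for all 12 pigs and as open diamonds without High MB 2. The diamonds lie near the points for the C1q genes and FES, and far below them for CD14 and MSR1.

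Among the resident macrophage receptors and markers, all 13 genes tested had a log2 fold change above 0, from 0.27 for STAB1 to 1.86 for CD209. The median was 0.96, and 0.55 without High MB 2. At an unadjusted p under 0.05, 7 of the 13 were higher in the High MB group, and 3 without that pig.

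CD209, a C-type lectin that binds mannose-rich sugars on microbes, had the largest fold change of the set. Its gene lies on the plus strand at chr2:71394414-71397711, and 48 to 747 reads per pig were counted. The bases just before its start hold the shorter PU.1 letters, in capitals, and end at the base before the start.
CD209, chr2:71394366-71394413, plus strand: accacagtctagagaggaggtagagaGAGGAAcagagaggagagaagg
In the study CD209 was also measured by qPCR. Each primer sequence had 1 match in the CD209 gene and its close flanks, inside a coding exon. The rest of the genome was not searched. They are shown because they mark the stretch of the transcript that the qPCR read; the qPCR values were not analysed here.
CD209F, chr2:71397044-71397063, plus strand: TGAAGGTTCCTGGCAATGGG
CD209R, chr2:71397573-71397592, minus strand: AGACGAGGGCTTCTCACAGA
The 6 High MB pigs held 3.18 CPM at the lowest, 4.59 at the median and 15.5 at the highest, and the 6 Low MB pigs held 0.764, 1.94 and 2.88 CPM. The ranges did not overlap. This separation was seen in 2 of the 35 genes, CD209 and LGALS3, and in 0.232% of all genes. Both are in the study's list from these same pigs, so the count is not independent evidence. High MB 2 and High MB 4, at 15.5 and 10.03 CPM, were far above the rest of their group. Mean levels were 6.89 ± 4.94 and 1.91 ± 0.761 CPM (SD, n = 6 each), a log2 fold change of 1.86 ± 0.43 (SE). The exact two-sided permutation test gave p = 0.00216, the smallest that 924 regroupings of the pigs allow. An exact permutation p under 0.05 was reached by 11 of the 35 genes, all of them higher in the High MB group, against 4.78% of all genes. This count was made over all 12 pigs only. The log2 fold change of CD209 was 2.02 among the deep libraries, 1.72 among the standard ones and 1.46 without High MB 2.

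CD163, the scavenger receptor for haemoglobin bound to haptoglobin, spanned 4.43 to 27.8 CPM in the High MB group (median 7.88) and 2.56 to 9.37 CPM in the Low MB group (median 4.40). High MB 2 was far above the next pig, at 10.2 CPM, and 3 of its group exceeded the Low MB range. The log2 fold change of 1.09 ± 0.43 (SE; exact permutation p = 0.0736) was 0.55 without High MB 2. MRC1, the macrophage mannose receptor, ran from 2.31 to 12.2 CPM (median 4.53) in the High MB group and from 1.20 to 3.96 CPM (median 2.81) in the Low MB group. The groups overlapped, although 4 High MB pigs exceeded the Low MB range. It gave a log2 fold change of 0.98 ± 0.38 (SE; exact permutation p = 0.0758), and 0.59 without High MB 2.

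LYVE1, a hyaluronan receptor of perivascular macrophages and of lymphatic vessels, covered 0.955 to 8.41 CPM in the High MB group (median 4.18) and 0.793 to 3.03 CPM in the Low MB group (median 2.30). The High MB pigs formed no single cluster, with 4 beyond the Low MB range and High MB 3 near the lowest of all. The fitted log2 fold change was 0.96 ± 0.45 (SE; exact permutation p = 0.219).

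CSF1R, the receptor for the growth factors CSF1 and IL34 on which macrophages depend for survival, was among the more abundant receptors at 519 to 1851 counts per pig. It ranged from 18.2 to 35.8 CPM (median 22.8) in the High MB group and from 11.9 to 23.0 CPM (median 15.4) in the Low MB group. The groups overlapped between 18.2 and 23.0 CPM, with 3 High MB pigs above that stretch and 4 Low MB pigs under it. The log2 fold change was 0.60 ± 0.20 (SE; exact permutation p = 0.0303), 0.64 among deep and 0.62 among standard libraries, and 0.49 without High MB 2.

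AIF1, an actin-binding protein of activated macrophages also called IBA1, stood at 0.978 to 5.79 CPM (median 2.05) in the High MB group and 0.700 to 1.77 CPM (median 1.14) in the Low MB group, with 4 High MB pigs beyond the Low MB range. The difference was 1.11 ± 0.37 on the log2 scale (SE; exact permutation p = 0.0325), and 0.69 without High MB 2. In the annotation AIF1 overlaps LST1 and NCR3, and how reads of shared stretches were assigned is not given in the sources used here.

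CD68, a lysosomal membrane glycoprotein widely used to stain macrophages, did not separate the groups. It spanned 2.02 to 9.36 CPM (median 3.82) in the High MB group and 1.74 to 5.38 CPM (median 3.41) in the Low MB group. It differed by a log2 fold change of 0.40 ± 0.36 (SE; exact permutation p = 0.405), 0.07 without High MB 2 and -0.23 among the deep libraries. Of the other receptors, MSR1, a scavenger receptor for modified lipoproteins, and VSIG4, a receptor for complement fragments, were higher at an unadjusted p under 0.05. MSR1 had a log2 fold change of 1.49 over all pigs, 0.39 without High MB 2 and -0.04 among the deep libraries, and VSIG4 had 0.74, 0.55 and 0.69. CD14, the co-receptor for bacterial lipopolysaccharide, did not reach that limit, and its log2 fold change of 0.93 was 0.09 without High MB 2.

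TREM2, a receptor for lipids and dying cells, was counted from 0 to 88 times per pig. It reached 1.83 CPM in High MB 2 and had no count in High MB 5, and the group medians were 0.166 and 0.152 CPM. The difference between groups was not tested.

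**Figure D2:**
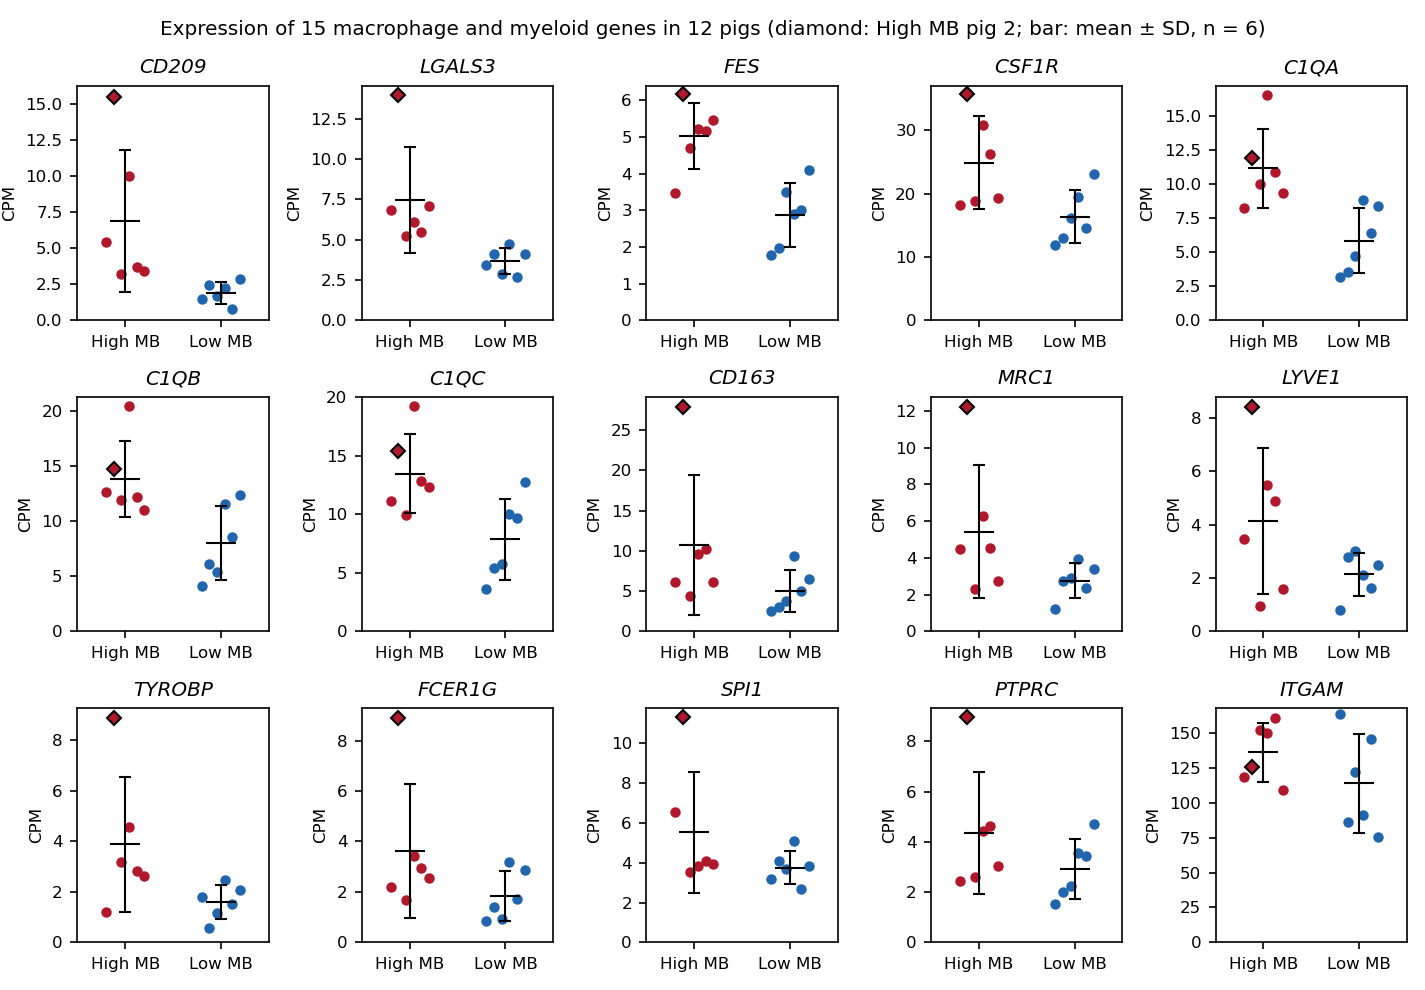
CPM of 15 macrophage and myeloid genes in each of the 12 pigs (points, High MB red and Low MB blue), with the mean and SD of each group of 6 as bars and High MB 2 as a diamond. High MB 2 is the highest point for CD209 and CD163, while High MB 4 is the highest for C1QA, C1QB and C1QC.

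The difference in the C1q genes did not rest on High MB 2. C1QA, C1QB and C1QC encode the 3 chains of the recognition molecule that starts the classical complement pathway, and they lie side by side on the plus strand of chromosome 6, from 80586259 to 80606076. All 3 were higher in the High MB group at an unadjusted p under 0.05, with and without High MB 2, and High MB 4 was the highest of the 12 pigs in each. Low MB 1 was the lowest in each.

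C1QA held 8.23, 10.4 and 16.5 CPM at the lowest, median and highest High MB pig and 3.20, 5.55 and 8.80 CPM in the Low MB group, so that 5 High MB pigs exceeded the Low MB range. Mean levels were 11.14 ± 2.92 and 5.85 ± 2.41 CPM (SD, n = 6 each), with a log2 fold change of 0.93 ± 0.26 (SE; exact permutation p = 0.00649). C1QB ran from 11 to 20.5 CPM (median 12.5) against 4.17 to 12.4 CPM (median 7.36). A log2 fold change of 0.78 ± 0.26 (SE) was fitted, with an exact permutation p of 0.0173. C1QC ran from 9.98 to 19.2 CPM (median 12.6) against 3.64 to 12.8 CPM (median 7.74), with a log2 fold change of 0.77 ± 0.27 (SE; exact permutation p = 0.0195). For C1QB and C1QC, 3 High MB pigs exceeded the Low MB range and 4 Low MB pigs lay under the High MB range. Without High MB 2 the log2 fold changes were 0.93, 0.78 and 0.75, and among the deep libraries 1.15, 0.95 and 0.90.

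Of the 10 signalling and transcription genes, all had a log2 fold change above 0 (median 0.72, and 0.41 without High MB 2), and 6 were higher at an unadjusted p under 0.05, or 2 without that pig. TYROBP and FCER1G encode the small adaptors through which many myeloid receptors signal. TYROBP ran from 1.21 to 8.85 CPM (median 3.01) in the High MB group and from 0.550 to 2.47 CPM (median 1.65) in the Low MB group. It exceeded the Low MB range in 5 High MB pigs, with High MB 1 as the exception. Its log2 fold change was 1.28 ± 0.42 (SE; exact permutation p = 0.0346), and 0.87 without High MB 2. FCER1G spanned 1.70 to 8.89 CPM (median 2.74) against 0.852 to 3.19 CPM (median 1.55), with a log2 fold change of 0.99 ± 0.43 (SE; exact permutation p = 0.0736) that was 0.51 without High MB 2.

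FES, a cytoplasmic tyrosine kinase of myeloid cells, was less tied to High MB 2 than the adaptors. It held 3.47 to 6.17 CPM (median 5.19) in the High MB group and 1.78 to 4.09 CPM (median 2.96) in the Low MB group, and only High MB 1 lay within the Low MB range. Mean levels were 5.03 ± 0.902 and 2.87 ± 0.882 CPM (SD, n = 6 each). The log2 fold change was 0.81 ± 0.22 (SE; exact permutation p = 0.00649), 0.90 among deep and 0.81 among standard libraries, and 0.76 without High MB 2.

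SPI1, the gene of PU.1, did not separate the groups, at 3.53 to 11.3 CPM (median 3.99) against 2.66 to 5.07 CPM (median 3.77). High MB 2 and High MB 1 were the 2 pigs above the Low MB range. Its log2 fold change was 0.56 ± 0.28 (SE; exact permutation p = 0.171), and 0.24 without High MB 2. PTPRC, the phosphatase CD45 that marks all white blood cells, ran from 2.44 to 8.95 CPM (median 3.74) against 1.53 to 4.72 CPM (median 2.86). High MB 2 was the 1 pig above the Low MB range, and the log2 fold change was 0.57 ± 0.34 (SE; exact permutation p = 0.201), or 0.25 without that pig.

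The other 5 signalling genes ranged from a log2 fold change of 0.13 for CORO1A, an actin regulator of white blood cells, to 1.25 for VAV1, a signalling protein of blood cells. VAV1, LCP1 (the actin bundler plastin-2) and LYN (a Src-family kinase) were higher at an unadjusted p under 0.05, and without High MB 2 their log2 fold changes were 0.64, 0.44 and 0.35. LAPTM5, a lysosomal membrane protein of blood cells, had 0.61 and 0.38.

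The integrin chains CD11b (ITGAM) and CD18 (ITGB2) form the complement receptor CR3, yet their counts behaved unlike each other. ITGAM stood at 109 to 161 CPM (median 138) in the High MB group and 75.6 to 163 CPM (median 106) in the Low MB group. Low MB 1 was the highest of the 12 pigs and High MB 2 was not raised. ITGAM was 9.83 to 75.6 times as high in CPM as ITGB2, which ran from 1.98 to 12.8 CPM in the High MB group and from 1.73 to 3.17 CPM in the Low MB group. Per kilobase of exon ITGAM had the highest level of the 36 genes, at 21.5 CPM per kb, ahead of CORO1A at 10.4 and C1QB at 9.40, with SIGLEC1, a sialic acid receptor, the lowest at 0.107. The log2 fold change of ITGAM was 0.25 ± 0.19 (SE; exact permutation p = 0.180), and that of ITGB2 was 0.93 ± 0.38 (SE; exact permutation p = 0.0693), or 0.36 without High MB 2.

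In the annotation ITGAM (chr3:17216719-17272134, minus strand) overlaps an uncharacterised long RNA gene, and TRIM72, a membrane repair gene of muscle fibres, lies 14337 bases before its start on the same strand. TRIM72 stood at 592 ± 67.4 and 586 ± 96.0 CPM in the High and Low MB groups (SD, n = 6 each). ITGB2 overlaps an annotated pseudogene, STAB1 overlaps NT5DC2 and F13A1 overlaps a microRNA gene. The part of reads from neighbouring or overlapping genes in these counts, and so in the ratio of ITGAM to ITGB2, was not tested.

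Of the 6 adhesion, costimulation and pattern recognition genes, 2 were higher at an unadjusted p under 0.05, ITGB2 and TLR4, and 0 without High MB 2. TLR4, the receptor for lipopolysaccharide, had a log2 fold change of 1.08 over all pigs, 1.57 among the standard libraries, which hold High MB 2, and -0.24 among the deep ones, and 0.43 without High MB 2. CD86, a costimulatory ligand for T cells, had 1.07, or 0.65 without that pig, and TLR2, the receptor for bacterial lipoproteins, had 0.69, or 0.11. CD83, a surface protein of mature dendritic cells, had a lower mean in the High MB group, with a log2 fold change of -0.28 ± 0.27 (SE; exact permutation p = 0.526) that was 0.020 without Low MB 2, its highest pig.

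LGALS3, a galactose-binding lectin abundant in macrophages and also made by other cells, was the other gene whose groups did not overlap. It held 5.25 to 13.95 CPM (median 6.47) in the High MB group and 2.70 to 4.76 CPM (median 3.75) in the Low MB group. High MB 2 was the highest at 13.95 CPM, and the other High MB pigs lay at or below 7.08 CPM. Mean levels were 7.45 ± 3.26 and 3.66 ± 0.800 CPM (SD, n = 6 each), a log2 fold change of 1.03 ± 0.24 (SE; exact permutation p = 0.00216). It was 1.00 among deep and 1.02 among standard libraries, and 0.77 without High MB 2.

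CTSS, a lysosomal cysteine protease that trims the invariant chain of class II molecules, had a log2 fold change of 0.71 and was higher at an unadjusted p under 0.05, with 0.45 without High MB 2. NCF1, the p47 subunit of the phagocyte oxidase, was counted only 2 to 51 times per pig. It ran from 0.0515 to 0.623 CPM in the High MB group and from 0.0513 to 0.811 CPM in the Low MB group, with a log2 fold change of -1.003 ± 0.64 (SE; exact permutation p = 0.156).

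**Figure D3:**
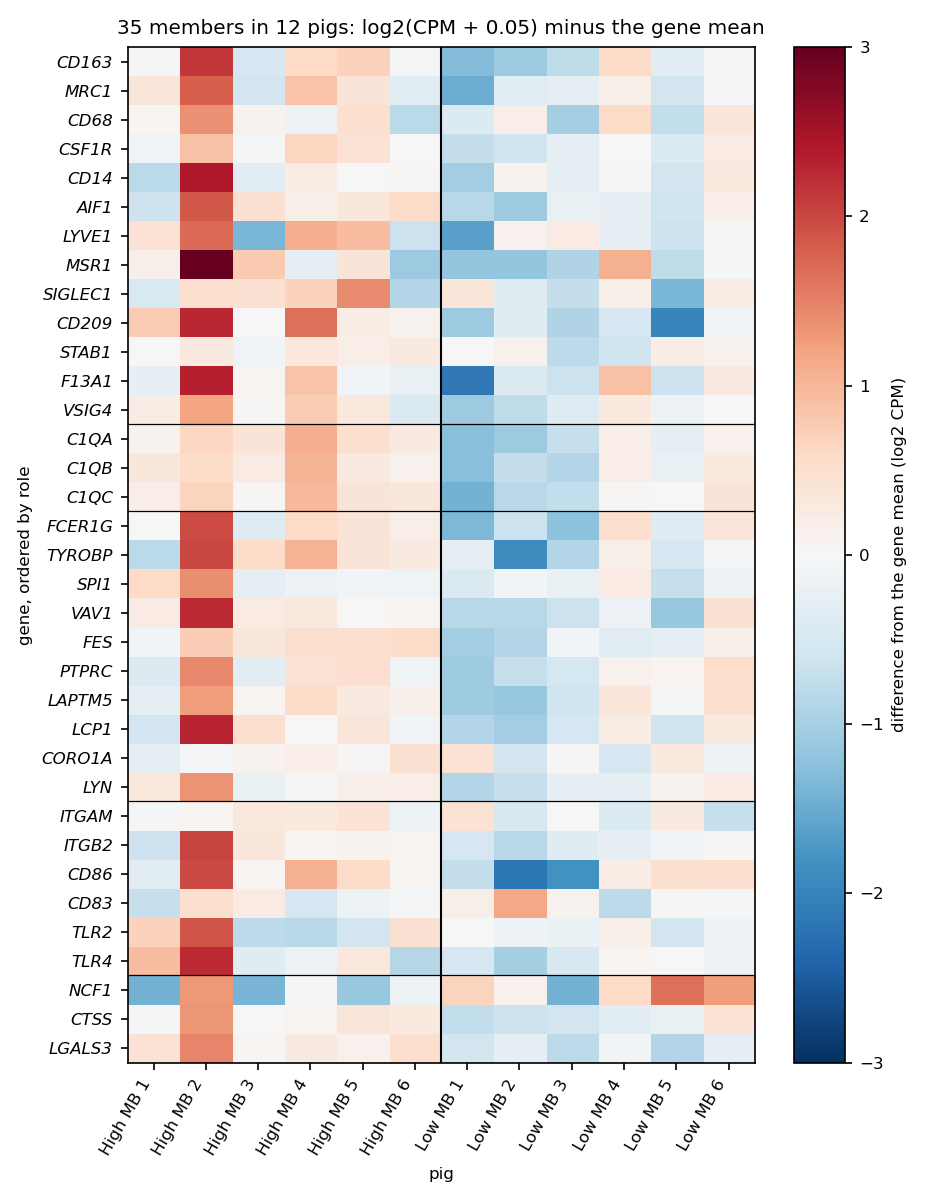
Difference of each of the 35 genes from its mean over the 12 pigs, on a log2 scale with 0.05 CPM added, with genes ordered by role and pigs by group. High MB 2 is the highest pig in 26 genes, Low MB 1 the lowest in 16 and Low MB 2 the lowest in 8.

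After the group means were removed, most of the genes still varied together from pig to pig. Over the 595 pairs of genes, the median Pearson r of log2 CPM was 0.55 (interquartile range 0.21 to 0.72) over 12 pigs. It was 0.33 over the 11 pigs without High MB 2, while the median between these genes and all other genes was 0.02 and 0.00. These are descriptions, since every pair shares the same libraries. PTPRC had the highest median r with the other genes, at 0.75, followed by FCER1G and LAPTM5 at 0.74, and ITGAM (-0.28) and CORO1A (-0.22) had the lowest. Over the 11 pigs the highest were LAPTM5 (0.63), CSF1R (0.61) and PTPRC (0.61), and the lowest was CD83 (-0.40).

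Certain pairs stayed close without High MB 2. The C1q chains had r between 0.94 and 0.95 with each other over the 12 pigs and likewise over 11. MRC1 and LYVE1 had r = 0.91, and 0.89 without that pig, and PTPRC and LAPTM5 had 0.93 and 0.91. Other pairs with a known physical or functional link were looser: TYROBP and FCER1G had 0.65 and 0.44, and ITGAM and ITGB2 had -0.03 and 0.12. CD209 and LGALS3 had 0.77 and 0.60.

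**Figure D4:**
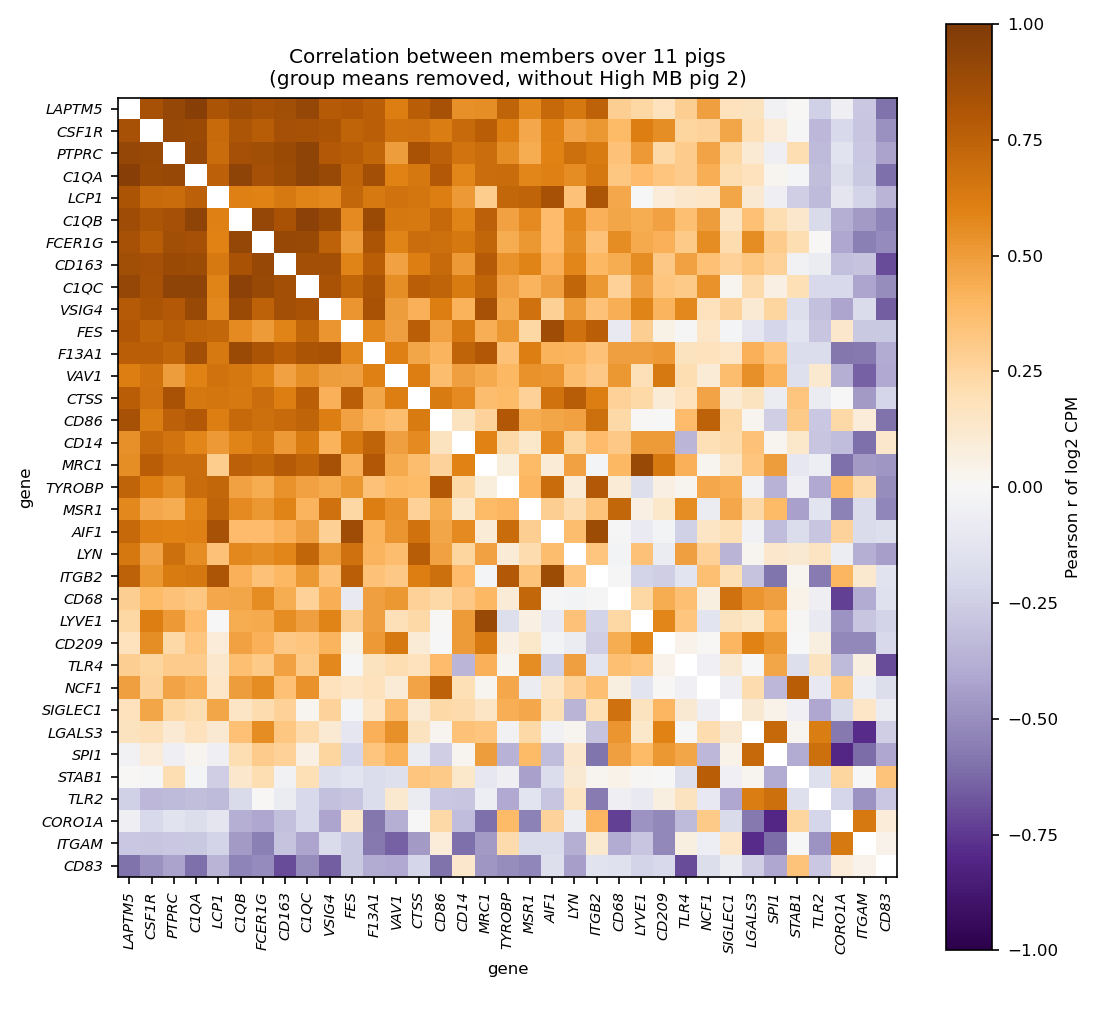
Pearson r of log2 CPM between each pair of the 35 genes over the 11 pigs other than High MB 2, with group means removed, from purple (negative) to orange (positive). PTPRC, CSF1R, FCER1G and the C1q genes form a block of positive r, while CD83, ITGAM and CORO1A lie apart.

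Within a group, no relation between the level of these genes and muscle myoglobin passed the adjusted limit. Groups of 6 pigs allow few orderings, so a single relation could hardly pass in an exact test. Myoglobin also spanned only 2.38 to 2.56 mg/g in the High MB group and 1.23 to 1.58 mg/g in the Low MB group. No conclusion is drawn from the lack of a relation. Of 70 relations (35 genes in 2 groups of 6 pigs), Pearson's r passed an exact permutation p under 0.05 for 1 gene in each group (SIGLEC1 in the High MB group and STAB1 in the Low MB group), and Spearman's rho for none. The smallest adjusted p of the exact permutation tests was 0.994 for Pearson's r. The median r was 0.17 in the High MB group and -0.03 in the Low MB group. Leaving out the 2 pigs farthest from the median myoglobin turned the sign of r for 13 and 11 genes.

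Partner genes of the same pathways were described by count, against 5.33% of all genes higher and 3.13% lower at an unadjusted p under 0.05. Without High MB 2 the share of all genes higher was 5.80%. Of 21 genes tested around the immune receptor adaptors and Src-family kinases, 19 had a log2 fold change above 0 and 7 were higher at that limit, with a median of 0.73. The 7 include GMFG (1.55), an actin regulator of white blood cells, FGR (0.73), a Src-family kinase, and PIK3R5 (1.03), a regulatory subunit of the phosphoinositide kinase of white blood cells. Without High MB 2 the median was 0.45 and 2 genes were higher at that limit, GMFG (0.66) and PIK3R5 (0.85), while FGR (0.54) was not.

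For the oxidase, 2 of 8 partners tested were higher at the same limit. CYBA, the p22 subunit that pairs with the product of CYBB, had a log2 fold change of 1.03, and 0.73 without High MB 2, and RAC2, the GTPase of the complex, had 0.78 and 0.61 and no longer passed without that pig, where HVCN1 (0.33), a proton channel, did. Of 11 genes tested of the CSF1 axis and monocyte recruitment, CSF1 itself was the 1 that passed, with a log2 fold change of 0.60, and 0.40 without High MB 2. In the Toll-like receptor pathway 2 of 19 genes passed, the interferon regulatory factors IRF5 (1.05) and IRF8 (0.78), which also stand among the 3 of 16 myeloid transcription regulators that did, with FLI1 (0.53). In the fit without High MB 2 these were 0.62, 0.80 and 0.48, and IRF5 no longer passed.

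Of 25 lysosome genes tested 3 passed, CTSZ (0.37), LIPA (0.72) and GPNMB (1.55), the last a glycoprotein of lipid-laden macrophages. They were 0.25, 0.47 and 0.91 without High MB 2, where GPNMB no longer passed. Among 8 Fc and phagocytic receptors the 1 that passed was CD47 (0.29), the signal that restrains phagocytosis. Among 10 cytokine and activation genes 3 passed, SPP1 (2.54), CD200R1 (1.41) and TGFB1 (0.33), and SPP1, the secreted protein osteopontin, reached 105.9 CPM in High MB 2. Without that pig they were 0.76, 0.81 and 0.30, and none of the 3 passed. With that pig left out, 5.80% of all genes were higher at that limit. The counts that passed were then 2 of 8 for the oxidase, 1 of 11 for the CSF1 axis and 1 of 19 for the Toll-like receptor pathway. They were 2 of 16 for the transcription regulators, 3 of 25 for the lysosome, 2 of 8 for the Fc and phagocytic receptors and 1 of 10 for the cytokines. Over all 12 pigs, no gene of these pathway lists was lower in the High MB group at an unadjusted p under 0.05. Without High MB 2 RAP1A (-0.28) of the oxidase list was, and the share of all genes lower was not counted there.

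Markers of other cells of the tissue were compared in the same way. All 9 fibroblast markers tested had a log2 fold change above 0, 5 of them at an unadjusted p under 0.05, and their sum was 662 to 1162 CPM in the High MB group and 346 to 855 CPM in the Low MB group. Those 5 included FBLN1 (0.80) and DPT (0.55), both of the extracellular matrix, and the collagen gene COL1A2 (0.71). All 7 adipocyte markers were above 0, with 2 at that limit, FABP4 (1.00) and CIDEC (0.90), and sums of 351 to 563 and 257 to 497 CPM. All 8 endothelial markers were above 0, with TIE1 (0.55) and ERG (0.41) at that limit, and sums of 156 to 214 and 96.8 to 223 CPM. Without High MB 2, 5 fibroblast, 3 adipocyte and 3 endothelial markers were at that limit. Their median log2 fold changes in that fit were 0.66, 0.86 and 0.29, beside 0.45 for the macrophage and myeloid genes.

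Of the 7 muscle fibre markers 1 was above 0, TNNT1 (0.56), the slow troponin T, which was higher at an unadjusted p under 0.05 with and without High MB 2. ATP2A1 (-0.44), the calcium pump of fast fibres, was the 1 lower at that limit, though not without High MB 2. T and NK cell markers summed to 8.82 to 14.5 CPM in the High MB group and 6.98 to 12.3 CPM in the Low MB group, with 1 of 9 tested at that limit, the cytotoxic granule gene NKG7 (1.09, and 0.38 without High MB 2). B and plasma cell markers summed to 9.12 to 13.2 and 8.55 to 12.6 CPM with 1 of 4 at the limit, mast cell markers to 2.97 to 6.59 and 1.60 to 4.00 CPM with 1 of 3, and dendritic cell markers to 2.62 to 5.87 and 2.70 to 5.23 CPM with 0 of 3. Red blood cell markers summed to 71.8 to 153.9 and 43.2 to 91.2 CPM with 2 of 3. The count without High MB 2 was 0 for T and NK cells, 0 for B and plasma cells, 0 for mast cells and 2 for red blood cells. Neutrophil markers summed to 1.83 to 5.23 and 1.65 to 2.50 CPM, and S100A8 (0.706 CPM), S100A12 (1.25 CPM) and CSF3R (1.89 CPM) were highest in High MB 2. ELANE, the 1 neutrophil marker tested, had a log2 fold change of -0.16 and stood at 1.39 CPM in that pig. MPO, a granule enzyme of the neutrophil lineage, was at 0 in all 12 pigs. The part of these cells in the levels of the macrophage and myeloid genes was not tested.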

How the data were processed

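Per the labels, the authors used Trim Galore, HISAT2 (genome Sscrofa11.1) and HTSeq, and deposited raw counts for each gene in 12 tables, without normalization. Tool versions, the annotation release and the strand setting are not given in the sources used here. The 12 transcript tables were not used, and the 5 summary lines of each gene table were left out.

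Groups came from the sample labels. The High MB group was compared with the Low MB group with edgeR 4.0.16 in R 4.3.3 (TMM scaling, filterByExpr, quasi-likelihood test, no covariate), fitted on all genes, with Benjamini-Hochberg adjustment over the 13373 tested. CPM values were scaled with TMM, and 2 was the prior count on the log2 scale. Single genes were compared by exact two-sided permutation tests over 924 regroupings. DESeq2 1.42.0 was an alternative, beside other scaling, filters, left-out pigs, depth class and the individual number as a block. The fits were tested on simulated data. Gene counts were 38914271 to 91318334 per pig, and the spread between pigs, which exceeded counting noise, set the precision.

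The members and all gene lists were chosen with earlier results of these data known. The genes given with full values were the 8 with the smallest unadjusted p, defining genes of each role, and CD209, LGALS3 and FES. The others named were picked after their values had been seen, or, in the pathway and cell lists, from the smallest p of the list. Positions and sequences came from the RefSeq annotation and genome of Sscrofa11.1, and primer sequences from the study's supplement.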

Additional observations from a re-analysis of the deposited data

Results flagged for a closer look

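In 6 of the 35 genes tested, 1 pig lay far from the other 5 of its group, by Dixon's ratio of the gap to the nearest pig over the range of log2 CPM. In all 6 cases the pig was High MB 2, the highest of its group. The ratio was 0.8519 for VAV1, where High MB 2 held 5.40 CPM and the next pig 1.40 CPM. It was 0.7061 for CTSS (25 and 12.7 CPM), 0.6956 for LGALS3 (13.95 and 7.08 CPM), 0.6798 for CD14 (17.6 and 3.83 CPM), 0.6642 for LYN (8.89 and 4.35 CPM) and 0.6351 for ITGB2 (12.8 and 3.93 CPM). Chance alone flags about 1 in 20 groups, and 70 groups were examined, which all come from the same 12 libraries. No Low MB pig was flagged.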

How the results depend on the processing

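Over 22 alternatives, 763 of 767 log2 fold changes of the genes kept their direction and their side of the adjusted limit. With DESeq2, CD209, LGALS3 and FES passed that limit, so that 3 of the genes and 29 genes in all were called, where edgeR called 0 of either. With edgeR at an unadjusted p under 0.05, 20 of the 35 genes were higher in the High MB group. In these alternatives CD83 was the 1 that turned its sign, to 0.020 without Low MB 2, the highest of values that reached -0.40 with single pigs left out. The count of 20 genes higher at an unadjusted p under 0.05 was between 10 and 22 over the fits with 1 pig left out, lowest without High MB 2, and 13 without Low MB 2. The count of 0 lower genes was between 0 and 1 in the same fits, with NCF1 lower without High MB 2. Without High MB 2 and Low MB 4 together, 2 genes were lower and 14 higher, against 5.06% of all genes higher. No share of all genes lower was counted for fits with pigs left out or for deep libraries, so those lower counts lack a background. Within the deep libraries, an alternative chosen after seeing the data, 5 genes were higher and 1 lower; they hold 2 High MB and 3 Low MB pigs, and there CD68 (-0.23), MSR1 (-0.04) and TLR4 (-0.24) turned their sign. The individual numbers did not pair the pigs. Same-numbered pigs had correlations of their deviations from -0.21 to 0.14, and no pig correlated best with its own number. The fit with that number as a replicate block gave 13 higher genes, and the share of all genes was not counted for it. NCF1 had 2 to 51 counts per pig, and TREM2 had too few to be tested.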
